A study of Mus musculus with 4 samples.

Results

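Tcf7, Lef1, Satb1, Bach2, Id3, Myb, Bcl6, Ets1, Tox and Foxp1 encode transcription factors known from naive and stem-like memory T cells. They were taken by gene name, as 10 of the 53465 genes of the deposited table, with earlier results of these data known. All 10 passed the filter on low counts. The cells were CD8+ T cells of mouse spleen, activated in culture over 24 h by beads coated with anti-CD3 and anti-CD28, which together mimic antigen and costimulation, and their RNA was sequenced. There were 2 libraries labelled PP2Cm KO, from PP2Cm-/- cells, and 2 labelled WT, each described as a biological replicate, and all 4 had the same stimulation. The sources used here give neither the deleted part of the gene nor the strain, the age or the number of mice per library. Ppm1k encodes PP2Cm, a phosphatase of mitochondria that switches on the breakdown of leucine, isoleucine and valine.

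All of the factors but Id3 bind DNA themselves, and they belong to several families. Naive CD8 T cells hold many of them at high levels, Tcf7 and Lef1 above all, and strong stimulation normally lowers these as cells turn into effectors. A small pool of stimulated cells that keeps Tcf7 can renew itself and give rise to memory cells. TCF-1, the product of Tcf7, and LEF1 bind DNA through an HMG box and set the chromatin of the CD8 lineage, while BACH2 and BCL6 are repressors that hold back effector genes.

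The labels conflict among themselves. Each library's title and genotype field name 1 genotype, and its description code begins with the letters of the other. Groups follow the title and the genotype field, so that every direction is that of the libraries labelled KO against those labelled WT, and every sign would turn if the codes named the genotype. Ppm1k itself had 157 and 206 counts in the libraries labelled KO, against 102 and 94 in those labelled WT. Its log2 fold change, labelled KO minus labelled WT, was 0.97 with an SE of 0.23 and an adjusted p of 0.186 by edgeR's quasi-likelihood test with Benjamini-Hochberg adjustment. The gene named by the knockout was thus higher in the libraries labelled KO, and the table does not resolve its exons.

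Library totals were 13394074 and 14199020 counts for the libraries labelled KO, and 12967251 and 17316284 for those labelled WT. The markers fitted the labelled cell type: Cd8a had 547 and 511 counts per 1000000 counts of the library (CPM, scaled by TMM) in the libraries labelled KO and 542 and 523 CPM in those labelled WT. Summed over 10 genes of CD8 T cell identity, the libraries labelled KO held 2800 and 2592 CPM and those labelled WT 3107 and 2869 CPM, and 7 of the 10 had a negative log2 fold change, with a median of −0.17. B cells also transcribe several of the factors, among them Bach2, Bcl6, Foxp1 and Ets1. The 12 B cell markers summed to 306 and 270.0 CPM in the libraries labelled KO and to 429 and 370.0 CPM in those labelled WT. Most of that was Ighm, and both libraries labelled KO lay below both labelled WT. Without Ighm the other 11 summed to 20.2 and 13.1 CPM in labelled KO against 22.6 and 25.3 CPM in labelled WT, again separate. Of the 12 markers, 9 were tested, and 8 of these had a negative log2 fold change, with a median of −0.61. A mean under 1 CPM was seen in 7 of the 12. Myeloid markers summed to 6.99 and 6.37 CPM in labelled KO against 5.3 and 11.4 CPM in labelled WT, dendritic cell markers to 23.3 and 21.8 CPM in labelled KO against 18.2 and 22.3 CPM in labelled WT, and NK and gamma-delta T cell markers to 95.9 and 89.6 CPM in labelled KO against 94.1 and 103.9 CPM in labelled WT. The 5 CD4 and regulatory T cell markers summed to 46.7 and 40.9 CPM in the libraries labelled KO and to 39.0 and 38.2 CPM in those labelled WT. The labels overlapped for the myeloid, dendritic and NK sums. They were separate for the CD8 identity sum, lower in labelled KO, and for the CD4 and regulatory sum, higher in labelled KO. S100a9 and Cd209a were at 0 in all 4 libraries, and the part of other cells in the results that follow was not tested.

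Foxp1, Tcf7, Myb and Bcl6 stood 1.53 to 2.25-fold lower in the libraries labelled KO than in those labelled WT. Bach2 and Lef1 also had both libraries labelled KO below both labelled WT, by 1.23 and 1.14-fold in the fit. For Id3, Satb1, Ets1 and Tox the labels overlapped. None of the 10 passed the threshold of 0.05 on the adjusted p by edgeR, where 28 of 13528 genes tested did (0.207% in either direction, 0.103% lower and 0.103% higher). At an unadjusted p under 0.05, 4 of 10, the first 4 named, were lower in the libraries labelled KO, against 7.23% of all genes tested, and 0 were higher, against 5.7%. DESeq2 called 3 of the 10 lower, Foxp1, Tcf7 and Myb, where it called 1.39% of the genes for which it gave an adjusted p, and it called 0 higher, against 0.69%. In 6 of 10 both libraries labelled KO lay below both labelled WT, against 23.3% of all genes tested, and in 0 they lay above, against 21.5%. The median log2 fold change was −0.24 for the 10 and −0.01 for all genes tested, and 7 of the 10 had a negative sign, against 51.9% of all genes tested. Among the 10 genes of CD8 T cell identity, 5 had both libraries labelled KO below both labelled WT, and 1 had both above. Of those identity genes, 3 were lower and 0 higher at an unadjusted p under 0.05 by edgeR, 7 had a negative sign, and DESeq2 called 0. With 2 libraries against 2, an exact permutation test of a single value cannot give a two-sided p below 0.333, so every adjusted p rests on spread pooled across genes. In RNA from whole cultures, fewer cells that express a gene and less of its RNA per cell cannot be told apart.

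Per length of gene, Tcf7 was the highest of the 10 and Bcl6 the lowest. In deposited FPKM, counts per kilobase of gene and per 1000000 counts of the library, the means over the 4 libraries were 159 for Tcf7, 36.5 for Ets1, 19.8 for Lef1, 16.9 for Satb1 and 13.7 for Id3. Below these came Foxp1 at 7.17 FPKM, Bach2 at 5.29 FPKM, Tox at 2.51 FPKM, Myb at 2.11 FPKM and Bcl6 at 0.693 FPKM. Over the 4 libraries the ranges of Lef1 and Satb1 overlapped, as did those of Foxp1 and Bach2 and those of Tox and Myb, while the ranges of the other neighbours in this order were separate. Within each of the 4 libraries Lef1 was above Satb1 and Foxp1 above Bach2. The order of Tox and Myb differed by label, with Tox above Myb in both libraries labelled KO, at means of 2.68 and 1.30 FPKM, and Myb above Tox in both labelled WT, at means of 2.91 and 2.33 FPKM. The lengths behind the deposited FPKM exceed the total exon length in GENCODE M21 for each of the 10, with 33.1 against 19.0 kilobases for Satb1, and the one used for Id3 is longer than the whole gene, 2.29 against 2.26 kilobases. Taken per kilobase of that exon length, Satb1 came before Lef1, and the other 8 kept their places.

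**Figure D1:**
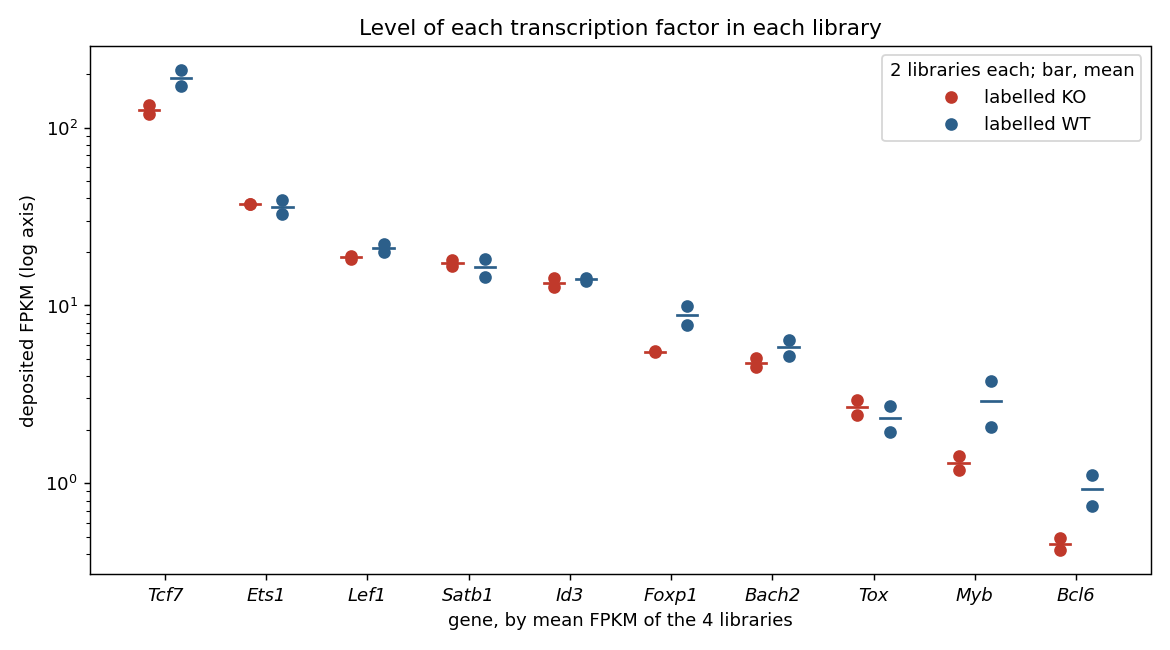
Deposited FPKM on a log axis of the 10 factors in each library, 2 labelled KO (left, red) and 2 labelled WT (right, blue), with bars at the means. Tcf7 lies between 119 and 211 FPKM, above all others, and the points of the 2 labels are separate for Tcf7, Lef1, Foxp1, Bach2, Myb and Bcl6.

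Of the HMG-box factors, Tcf7 had the larger difference between labels and Lef1 a small one. Tcf7 (ENSMUSG00000000782, chromosome 11 from 52252371 to 52283014 in GRCm38) had 6014 and 5649 counts in the libraries labelled KO and 9175 and 9934 in those labelled WT, which gave 452 and 391 CPM in labelled KO against 705 and 585 CPM in labelled WT. Both libraries labelled KO lay below both labelled WT. Its mean was 422 ± 43.2 CPM in the libraries labelled KO and 645 ± 84.9 CPM in those labelled WT (SD, n = 2 each), and the fit put it 1.53-fold lower in labelled KO. The log2 fold change was −0.61 (SE 0.14, 95% limits −0.95 and −0.28), with an adjusted p of 0.167 by edgeR and 0.00645 by DESeq2. It ranked 279 of 13528 genes by p.

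Lef1 (ENSMUSG00000027985, chromosome 3 from 131110471 to 131224356), the partner that shares much of the work of TCF-1 in T cells, had 177 and 166 CPM in the libraries labelled KO, against 203 and 187 CPM in those labelled WT. The labels did not overlap, but the gap was small, with a log2 fold change of −0.19 (SE 0.11, 95% limits −0.44 and 0.07) and an adjusted p of 0.522 by edgeR. Within a library, the ratio of Tcf7 to Lef1 in FPKM does not depend on how libraries are scaled. That ratio, chosen after the values were seen, was 7.04 and 6.49 in the libraries labelled KO and 9.56 and 8.6 in those labelled WT. An antisense gene that overlaps Lef1 exons, Gm43352, had 10 and 18 counts in the libraries labelled KO and 26 and 27 in those labelled WT, against at least 2355 for Lef1.

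Tox (ENSMUSG00000041272, chromosome 4 from 6686353 to 6991557) encodes an HMG-box factor needed for the development of CD4 lineage cells and known from exhausted CD8 T cells. It had 21.4 and 25.5 CPM in the libraries labelled KO and 23.9 and 17.3 CPM in those labelled WT. The labels overlapped, and the log2 fold change of 0.19 (SE 0.21) had 95% limits of −0.30 and 0.68 and an adjusted p of 0.755 by edgeR.

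Among the repressors, Foxp1 had the smallest p of the 10, and Bcl6 had a larger fold at a far lower level. Foxp1 (ENSMUSG00000030067, chromosome 6 from 98925338 to 99522721), a forkhead factor that keeps naive T cells quiescent, had 1778 and 1912 counts in the libraries labelled KO, against 3132 and 3258 in those labelled WT. In CPM these were 134 and 132 in labelled KO against 241 and 192 in labelled WT. The libraries labelled KO lay close together and below both labelled WT, with means of 133 ± 0.945 CPM in labelled KO and 216 ± 34.5 CPM in labelled WT (SD, n = 2 for either label), 1.62-fold lower in the fit. Its log2 fold change was −0.70 (SE 0.13, 95% limits −1.02 and −0.38), with an adjusted p of 0.117 by edgeR and 0.0022 by DESeq2, and it ranked 147 of 13528 by p. Relative to Satb1 in the same library, a ratio chosen after the values were seen, Foxp1 stood at 0.303 and 0.334 in FPKM in the libraries labelled KO and at 0.543 and 0.533 in those labelled WT.

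Bcl6 (ENSMUSG00000022508, chromosome 16 from 23965052 to 23988852), a zinc finger repressor that supports memory precursors and opposes Prdm1, had 42 and 52 counts in the libraries labelled KO, against 108 and 96 in those labelled WT. That gave 3.16 and 3.6 CPM in labelled KO against 8.3 and 5.65 CPM in labelled WT, with no overlap between labels. The log2 fold change was −1.04 (SE 0.28, 95% limits −1.71 and −0.37), with an adjusted p of 0.228 by edgeR and 0.328 by DESeq2. Bach2 (ENSMUSG00000040270, chromosome 4 from 32238804 to 32586108), a repressor that binds AP-1 sites and restrains effector genes, had 88.6 and 96.6 CPM in the libraries labelled KO and 125 and 104 CPM in those labelled WT. Its labels were separate, and its log2 fold change was −0.30 (SE 0.13, 95% limits −0.61 and 0.01), with an adjusted p of 0.399 by edgeR.

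Satb1 (ENSMUSG00000023927, chromosome 17 from 51736187 to 51833290), a chromatin organiser of thymocytes and naive T cells, had 602 and 540 CPM in the libraries labelled KO, against 604 and 490 CPM in those labelled WT. Labelled WT held both the highest and the lowest library, so the labels overlapped. The log2 fold change was 0.06 (SE 0.14, 95% limits −0.27 and 0.39), with an adjusted p of 0.898 by edgeR. Gm36931, an annotated gene that shares exons with Satb1 on the same strand, had 45 and 63 counts in the libraries labelled KO and 42 and 40 in those labelled WT, against at least 7803 for Satb1.

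Of the remaining factors, Myb had the largest fold of the 10, while Ets1 and Id3 had nearly equal means. Myb (ENSMUSG00000019982, chromosome 10 from 21124935 to 21160984), a factor of progenitor cells that also keeps stem-like CD8 T cells, had 180 and 228 counts in the libraries labelled KO and 550 and 406 in those labelled WT. In CPM these were 13.5 and 15.8 in labelled KO against 42.3 and 23.9 in labelled WT. The labels did not overlap, and labelled WT replicate 1 stood well above the other 3 libraries. The means were 14.7 ± 1.59 CPM in the libraries labelled KO and 33.1 ± 13 CPM in those labelled WT (SD, n = 2 each), and the fit put Myb 2.25-fold lower in labelled KO. Its log2 fold change was −1.17 (SE 0.28, 95% limits −1.83 and −0.51), with an adjusted p of 0.18 by edgeR and 0.00797 by DESeq2. With labelled WT replicate 1 left out, Myb had a log2 fold change of −0.70.

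Ets1 (ENSMUSG00000032035, chromosome 9 from 32636221 to 32757820), an ETS-family factor of resting lymphocytes, had 437 and 428 CPM in the libraries labelled KO, against 456 and 391 CPM in those labelled WT. Both libraries labelled KO lay between those labelled WT, with a log2 fold change of 0.03 (SE 0.12, 95% limits −0.25 and 0.31) and an adjusted p of 0.949 by edgeR. Id3 (ENSMUSG00000007872, chromosome 4 from 136143497 to 136145755) lacks a DNA-binding region and holds E proteins off DNA. It had 29.2 and 32.1 CPM in the libraries labelled KO and 31.4 and 33.4 CPM in those labelled WT, with overlap. The log2 fold change was −0.08 (SE 0.15, 95% limits −0.44 and 0.27), with an adjusted p of 0.869 by edgeR.

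**Figure D2:**
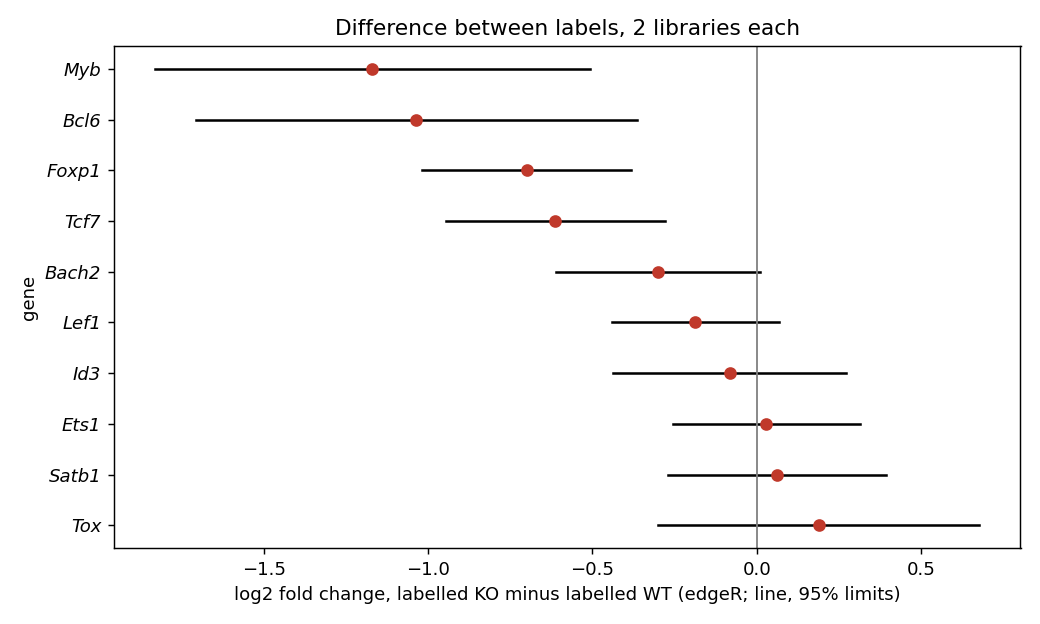
Log2 fold change, labelled KO minus labelled WT, by edgeR for the 10 factors (points) with 95% limits (lines), from 2 libraries each. The limits of Myb, Bcl6, Foxp1 and Tcf7 lie below 0 and those of the other 6 include 0, although none of the 10 passed after adjustment over 13528 genes.

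Leaving out single libraries changed the sizes of the differences. The 4 factors with the largest differences kept a negative log2 fold change in each such fit, from −0.74 to −0.47 for Tcf7, from −0.85 to −0.52 for Foxp1, from −1.53 to −0.70 for Myb and from −1.29 to −0.73 for Bcl6. Because their labels did not overlap, leaving out 1 library could hardly turn these signs, and the kept signs add no support. For each of the 4 the smallest size came without labelled WT replicate 1, the library in which it was highest, and the largest without labelled WT replicate 2. Each such fit leaves 1 library in a label, so its spread comes from the other label's pair alone.

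**Figure D3:**
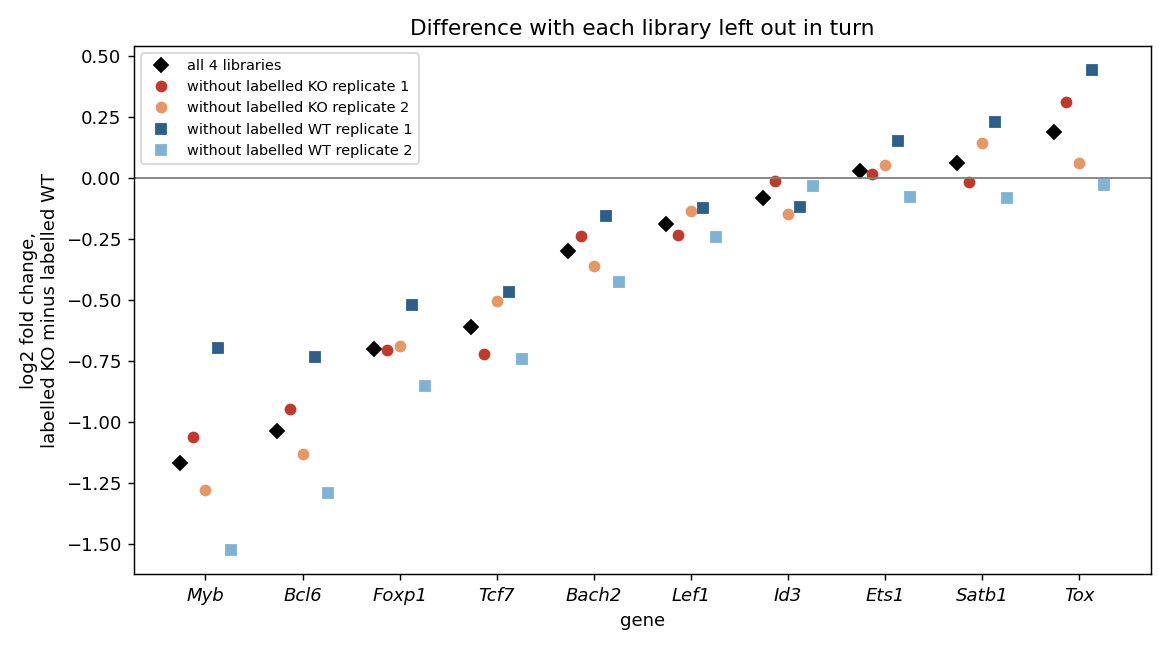
Log2 fold change, labelled KO minus labelled WT, of each factor with all 4 libraries (diamonds), without 1 library labelled KO (circles) or without 1 labelled WT (squares). Myb, Bcl6, Foxp1, Tcf7, Bach2, Lef1 and Id3 stay below 0 in every fit, with Myb ranging from −1.53 to −0.70, while Ets1, Satb1 and Tox lie on both sides of 0. For all that stay below 0 except Id3, the labels did not overlap, which by itself all but fixes the sign.

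Some of the factors were each other's nearest in their pattern over the 4 libraries. The measure was the root mean square difference, over the 4 libraries, of log2 CPM after the gene's own mean was taken off, and with 4 libraries it is a description. By this measure the nearest of the other 9 factors to Tcf7 was Foxp1, at 0.0821, and Foxp1 was nearest to Tcf7 in turn. Satb1 and Ets1 were each other's nearest at 0.055, Myb and Bcl6 at 0.135, and Lef1 and Bach2 at 0.107. The closest pair of any set is always mutual, as Satb1 and Ets1 were here. Of 9233 other genes with a mean of at least 10 CPM, the 3 nearest to Tcf7 were Bckdha, a subunit of the branched-chain ketoacid dehydrogenase, Pold4, a subunit of DNA polymerase delta, and Kif21b, a kinesin, at 0.0323, 0.0343 and 0.036. Bckdha had 15.9 and 14.3 CPM in the libraries labelled KO and 24.7 and 21.2 CPM in those labelled WT. In all, 65 genes lay within 0.1 of Tcf7, so such nearness was shared by many genes.

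Start-site windows from RefSeq (GRCm38.p6), 250 bases before and 50 after the start, were used for 5 of the 10, Lef1, Satb1, Id3, Myb and Bcl6, whose listed start lies within 100 bases of the 5′ end of the RefSeq gene. For Tcf7 the listed start and the deposited gene lie 369 bases inside the RefSeq gene, and its window was not used, nor were those of Foxp1 and Bach2, whose listed starts also lie beyond 100 bases. Ets1 and Tox were not in the table of windows used here. The windows of Myb and Bcl6, the pair with the largest folds, and of Lef1, which differed little, are shown 5′ to 3′ on the gene's strand. Capitals mark matches on either strand to 7 short motifs: CTTTGA for TCF and LEF, TGTTTAC for forkhead factors, CCGGAAG for ETS factors, CACGTG for MYC and MAX, TGAGTCA for AP-1 and BACH, CAACTG for MYB and GGGCGG for the GC box.
Myb, chr10:21160935-21161234, minus strand: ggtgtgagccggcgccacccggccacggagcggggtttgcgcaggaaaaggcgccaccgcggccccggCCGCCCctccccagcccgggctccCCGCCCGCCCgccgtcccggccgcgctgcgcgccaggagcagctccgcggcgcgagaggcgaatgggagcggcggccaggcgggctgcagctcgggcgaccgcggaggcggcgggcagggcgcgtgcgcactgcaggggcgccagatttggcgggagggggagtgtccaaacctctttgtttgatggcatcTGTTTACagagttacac
Bcl6, chr16:23988803-23989102, minus strand: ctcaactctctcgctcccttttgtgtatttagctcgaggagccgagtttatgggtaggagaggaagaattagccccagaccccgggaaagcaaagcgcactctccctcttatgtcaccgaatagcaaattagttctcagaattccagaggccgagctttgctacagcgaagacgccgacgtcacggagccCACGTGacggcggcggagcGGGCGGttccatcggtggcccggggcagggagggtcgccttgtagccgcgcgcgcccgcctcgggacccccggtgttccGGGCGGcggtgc
Lef1, chr3:131110073-131110372, plus strand: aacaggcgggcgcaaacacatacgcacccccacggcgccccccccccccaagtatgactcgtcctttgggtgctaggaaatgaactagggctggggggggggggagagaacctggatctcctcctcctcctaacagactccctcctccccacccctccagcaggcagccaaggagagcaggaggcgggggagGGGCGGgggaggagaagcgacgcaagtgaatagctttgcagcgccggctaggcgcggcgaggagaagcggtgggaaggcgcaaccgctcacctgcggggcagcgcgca
In Myb, 3 GC boxes stood on the opposite strand between positions −182 and −149, of which 2 overlap each other, and the forkhead letters stood from 34 to 40 after the start. In Bcl6 the MYC and MAX letters stood from −60 to −55 and GC boxes from −41 to −36 and from 39 to 44, and in Lef1 a GC box stood from −58 to −53. GC boxes were present in 4 of the 5 windows, against 35.7% of 32851 RefSeq windows of the same length. The forkhead letters were in 1 of 5, against 3.65% of all windows, and the MYC and MAX letters in 1 of 5, against 7.15%. CTTTGA, present in 16% of all windows, CAACTG in 13.7%, CCGGAAG in 8.86% and TGAGTCA in 5.2% were in 0 of the 5. The 5 windows had 59 to 75% G and C, against a median of 52.7% over all windows. The Lef1 window lies wholly upstream of the deposited gene. That of Id3 lies wholly inside its deposited gene, with the listed start 325 bases in. A match is a description of letters in these windows.

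Genes that naive and stem-like memory CD8 T cells express beside these factors had mostly smaller values in the libraries labelled KO. The list of 25 such genes, like the other lists below, was chosen with earlier results of these data known. Setting such a list against all genes tested is therefore a description and not an independent test. All 25 were tested, and 22 had a negative log2 fold change and 3 a positive one. Their median was −0.58, against −0.01 for all genes tested. None passed by edgeR, while 16 were lower, against 7.23% of all genes tested, and 0 higher, against 5.7%, at an unadjusted p under 0.05. DESeq2 called 8 lower, against 1.39%, and 0 higher, against 0.69%. In 18 both libraries labelled KO lay below both labelled WT, against 23.3% of all genes tested, and in 1, Bcl2, both lay above, against 21.5%. The smallest p values were those of Nsg2, a vesicle protein gene first known from neurons, Gramd3, and Cxcr5, the receptor for the follicle chemokine CXCL13, each with an adjusted p of 0.0502 by edgeR. Cxcr5 had 26.8 and 23.2 CPM in the libraries labelled KO and 54.2 and 64.7 CPM in those labelled WT, with a log2 fold change of −1.25 (SE 0.17). Nsg2 stood at 40.6 and 35.8 CPM in labelled KO against 90.6 and 78.2 CPM in labelled WT, and Gramd3 at 77.8 and 91.6 CPM in labelled KO against 159 and 166 CPM in labelled WT. For these 3 the labels were far apart, and DESeq2 gave adjusted p values of 2.08e-07 for Nsg2, 2.17e-06 for Gramd3 and 6.16e-07 for Cxcr5.

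Among the genes of lymphocyte traffic, chosen after their values were seen, Ccr7, the receptor that guides T cells into lymph nodes, had 349 and 436 CPM in the libraries labelled KO, against 704 and 618 CPM in those labelled WT. Klf2, which drives S1pr1, had 14.9 and 18.2 CPM in labelled KO against 30.7 and 27.5 CPM in labelled WT. The labels were separate for both, with adjusted p values by edgeR of 0.121 for Ccr7 and 0.146 for Klf2, and by DESeq2 of 0.000416 for Ccr7 and 0.0421 for Klf2. S1pr1 had 15.8 and 17.1 CPM in labelled KO against 27.8 and 25.3 CPM in labelled WT. Neither tool called S1pr1, with an adjusted p of 0.164 by edgeR and 0.126 by DESeq2.

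Effector genes, several of which these factors are known to restrain, had values on both sides, more of them negative than positive. Of 24, 23 were tested, and 17 had a negative and 6 a positive log2 fold change. Their median was −0.17, and 51.9% of all genes tested had a negative log2 fold change. In 6 of the 23 both libraries labelled KO lay below both labelled WT, against 23.3% of all genes tested. In 2 they lay above, against 21.5%. Before adjustment, 3 were lower with a p under 0.05, against 7.23% of all genes tested, and 3 were higher, against 5.7%, and by edgeR after adjustment 0 were lower and 2 higher, against 0.103% for each direction. DESeq2 called 2 lower, against 1.39% of the genes for which it gave an adjusted p, and 2 higher, against 0.69%. Irf4, a factor induced in step with T cell receptor signal strength, rose to 867 and 890 CPM in the libraries labelled KO, against 451 and 390 CPM in those labelled WT (adjusted p = 0.0415 by edgeR). Il2ra, whose product gives the interleukin 2 receptor its high affinity, rose to 983 and 937 CPM in labelled KO, against 523 and 508 CPM in labelled WT (adjusted p = 0.0488 by edgeR). Over their alternatives the adjusted p ran from 8.83e-12 to 0.156 for Irf4 and from 6.76e-10 to 0.164 for Il2ra, lowest by DESeq2 and highest by edgeR without labelled KO replicate 2. Both calls were also lost by limma on FPKM and with a block that pairs replicate 1 of each label with replicate 2 of the other, chosen after seeing the data (adjusted p by edgeR 0.0647 for Irf4 and 0.0761 for Il2ra), and that of Il2ra by edgeR without labelled KO replicate 1 (adjusted p = 0.0776). The 3 others with the smallest p were Ccl5, a chemokine gene, at 6.09 and 8.1 CPM in the libraries labelled KO against 14.7 and 22.4 CPM in those labelled WT, Id2 and Fasl, with adjusted p values by edgeR of 0.115 for Ccl5, 0.149 for Id2 and 0.369 for Fasl. All 3 were lower in labelled KO, and DESeq2 gave adjusted p values of 0.00434 for Ccl5, 0.0415 for Id2 and 0.615 for Fasl. Prdm1, which BCL6 and BACH2 repress, had 3.08 and 1.52 CPM in the libraries labelled KO, against 2.61 and 5.89 CPM in those labelled WT, with overlap and an adjusted p of 0.502 by edgeR. Tbx21 and Eomes, T-box factors of effector and memory cells, had log2 fold changes of −0.05 and −0.17, with adjusted p values of 0.891 and 0.582 by edgeR. Prdm1, Tbx21 and Eomes were chosen after their values were seen.

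Partners and cofactors of the 10 and their closest relatives showed no common direction. Of 24 partners and cofactors, 11 had a negative and 13 a positive log2 fold change, with a median of 0.03, and none passed by edgeR or DESeq2, while 1 was lower and 2 were higher at an unadjusted p under 0.05, against the same 7.23% and 5.7%. Those 3 were Tcf3, an E protein held off DNA by ID3, at 192 and 155 CPM in the libraries labelled KO against 220 and 223 CPM in those labelled WT, and the small MAF proteins that pair with BACH2. Mafg had 70.6 and 77.7 CPM in the libraries labelled KO against 47.1 and 59.4 CPM in those labelled WT, and Mafk 85.2 and 77.0 CPM in labelled KO against 60.9 and 66.2 CPM in labelled WT. Their adjusted p values by edgeR were 0.332 for Tcf3, 0.285 for Mafg and 0.32 for Mafk. For Ctnnb1, which encodes the TCF-1 and LEF1 coactivator beta-catenin (chosen after its values were seen), the log2 fold change was −0.16, with overlap between labels.

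Of 18 relatives, 12 passed the filter, 5 with a negative and 7 with a positive log2 fold change and a median of 0.07. None passed by edgeR. At an unadjusted p under 0.05, 1 was lower, against 7.23% of all genes tested, and 2 were higher, against 5.7%. Id2, the relative of Id3 that supports effector cells and stands in both lists, had 29.2 and 27.8 CPM in the libraries labelled KO and 45.1 and 45.0 CPM in those labelled WT, with a log2 fold change of −0.66 (SE 0.14). DESeq2 called it, with an adjusted p of 0.0415, and called no other relative. Of the genes for which DESeq2 gave an adjusted p, it called 1.39% lower and 0.69% higher. Foxp4, a relative of Foxp1, had 90.4 and 87.4 CPM in the libraries labelled KO and 72.1 and 54.7 CPM in those labelled WT, with a log2 fold change of 0.49 (SE 0.16) and an adjusted p of 0.279 by edgeR. Id1 rested on few reads, with 26 and 25 counts in the libraries labelled KO and 8 and 3 in those labelled WT.

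**Figure D4:**
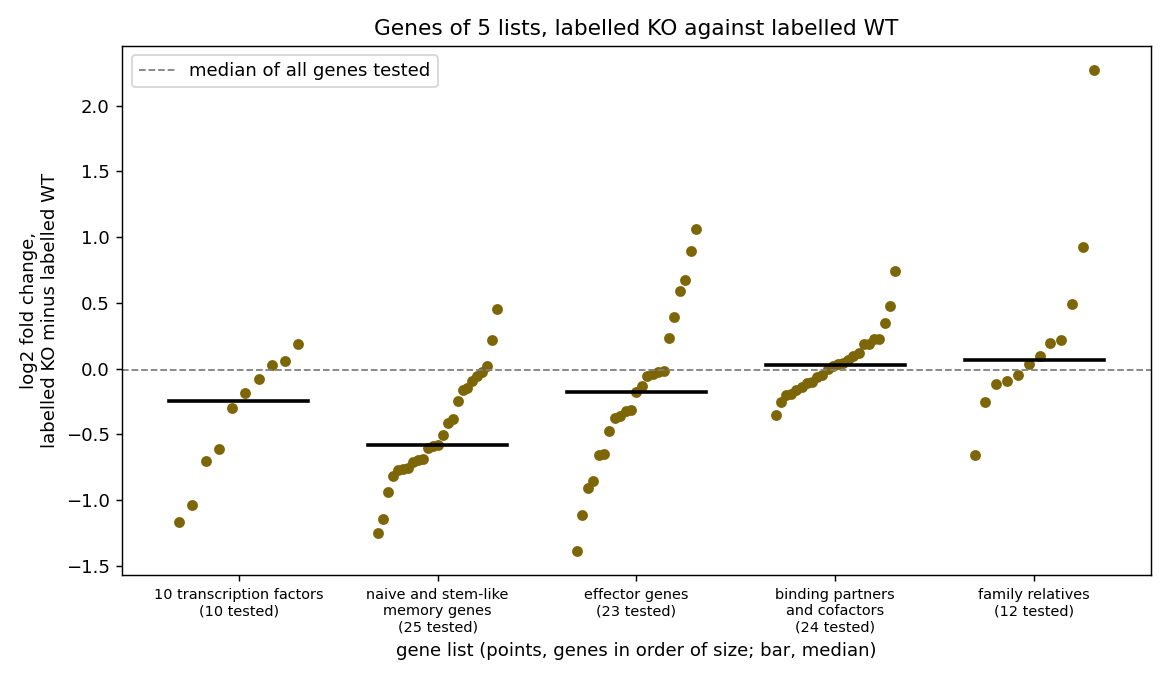
Log2 fold change, labelled KO minus labelled WT, by edgeR for each tested gene (points) of the 10 factors and of 4 lists, with a bar at each median and a dashed line at the median of all genes tested. The median is −0.24 for the 10 factors, −0.58 for the naive and stem-like memory genes, −0.17 for the effector genes, 0.03 for partners and cofactors and 0.07 for relatives.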

How the data were processed

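RNA sequencing of activated mouse CD8+ T cells was analysed from a table of 53465 genes, with 2 libraries per label. Per the file headers, the authors deposited counts per gene, which are whole numbers, and FPKM. Kallisto and GRCm38 are named, per the submitters' processing notes, and the sources used here give neither their role nor the strand setting nor how reads of overlapping genes were divided. Kits were stranded, per the labels' protocols. The table's other 8 columns of values were not used. Columns carry the description codes, through which each was joined to its sample.

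Counts were filtered by filterByExpr, which left 13528 genes, scaled by TMM and tested with edgeR 4.0.16 (R 4.3.3) by the quasi-likelihood F test, labelled KO minus labelled WT, two-sided, with Benjamini-Hochberg adjustment over all genes tested and a threshold of 0.05. The standard error is the log2 fold change over the square root of F. The biological coefficient of variation was 15.9%. Replicates of a label differed beyond counting noise, with a chi-square per degree of freedom of 12.8 for labelled KO and 17.6 for labelled WT. Nothing says that replicates came from separate mice, so p values measure the spread between these libraries.

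Alternatives were RLE size factors, other filters on low counts (none, or at least 1 CPM in 2 libraries), DESeq2 1.42.0, limma 3.58.1 on log2(FPKM + 1) and log2(FPKM + 0.1), the replicate number as a block, and each library left out. Coordinates match GENCODE M21 (GRCm38) for all 10 factors.

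The 10 factors and the lists were chosen with earlier results of these data known. The rule for named genes took all 10, Ppm1k, in each list the genes called by edgeR and the 3 others with the smallest p, and the 3 genes nearest to Tcf7.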

Additional observations from a re-analysis of the deposited data

How the results depend on the processing

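The log2 fold changes of the 10 factors were recomputed under 11 alternatives each, 110 in all: 98 kept direction and side of the threshold, 8 kept direction and newly passed, and 4 reversed. The reversals were Satb1 without labelled KO replicate 1 (−0.018), and Satb1 (−0.081), Ets1 (−0.077) and Tox (−0.028) without labelled WT replicate 2. The cause was not tested. For factors whose labels did not overlap, leaving out 1 library could hardly reverse the direction. The highest values as single libraries were left out were 0.23, 0.15 and 0.44 for Satb1, Ets1 and Tox. The count of factors called, 0 by edgeR, was 3 with DESeq2, 1 (Foxp1) with no filter on low counts, and 0 to 4 as single libraries were left out (4 without labelled WT replicate 2), over which their median ran from −0.34 to −0.14. Over all genes, the 28 calls became 253 with DESeq2, 51 with the 1 CPM filter, 146 with no filter, 5 on log2(FPKM + 1) and 4 on log2(FPKM + 0.1), and, by library left out, 59 and 8 without labelled KO replicates 1 and 2 and 304 and 255 without labelled WT replicates 1 and 2. Calls among the 25 naive and stem-like memory genes, 0 by edgeR, were 8 with DESeq2, 3 with the 1 CPM filter and 4 with no filter, and 5 and 7 without labelled WT replicates 1 and 2 but 0 without either labelled KO, with a median of −0.57 to −0.34. Effector genes called, 2 by edgeR, were 4 with DESeq2, 0 on log2(FPKM + 1), 0 on log2(FPKM + 0.1) and 0 (without labelled KO replicate 2) to 3 (without labelled WT replicate 1) as single libraries were left out, with a median of −0.43 to −0.019. Among relatives 1 was called with DESeq2 and, among single libraries left out, 1 without labelled WT replicate 1 and 0 without each other, with a median of −0.048 to 0.21, and for partners that median ran from −0.0034 to 0.081. A fit with 1 library left takes its spread from the other label's pair. Same-numbered libraries deviated with a correlation of −0.172 across genes, and whether the numbers pair libraries was not tested. The replicate block called 123 genes, 3 of them naive and stem-like memory genes, and no factor. The crossed pairing, chosen after seeing the data, called 12. At these totals a count of 0 allows up to 0.231 CPM.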
